A study of Mus musculus with 5 samples.

Results

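The genes described here are the 7 that encode the kainate receptor subunits (Grik1, Grik2, Grik3, Grik4 and Grik5) and their auxiliary Neto proteins (Neto1 and Neto2). They were chosen by name, and all 7 were found among the 23420 gene symbols measured in the mouse dentate gyrus (DG), the entry region of the hippocampus for cortical input. All 7 had a mean value of at least 5 on the log2 scale used here, which 13550 genes reached, and those genes are termed expressed.

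The RNA came from wild-type CD1 mice, an outbred strain, aged 4 months per the labels, that were kept in their environment for 4 weeks. LD mice lived alone with a locked disk, RUN mice lived alone with a disk on which they could run, and CE (complex environment) mice lived in social groups with a locked disk and tunnels. RNA of 8 mice was pooled for each of the LD, CE and RUN libraries. The same runners were split by the distance they ran into L-RUN (low runners) and H-RUN (high runners), pools of 4 mice each, so the RUN library holds the RNA of the L-RUN and H-RUN mice together. The split was made after running and not assigned, social housing is part of CE only, and the whole microdissected DG was used. With 1 library per group there was no replicate check and no p-value could be given, and all comparisons with LD share the same LD library.

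Kainate receptors are tetrameric cation channels opened by glutamate. The proteins encoded by Grik1, Grik2 and Grik3 (GluK1, GluK2 and GluK3) can form channels by themselves, whereas those encoded by Grik4 and Grik5 (GluK4 and GluK5) bind kainate with higher affinity but need a partner from the first set to work. Neto1 and Neto2 are transmembrane proteins that sit beside the channel and slow the decay of its currents. Granule cells, the principal neurons of the DG, send mossy fibers to CA3, where kainate receptors are known on both sides of the synapse.

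Values are regularized log values, a log2 measure of read number that the authors normalized over all libraries and shrank towards each gene's mean. Read depth is unknown here, so no counting error can be stated. The only error available was technical. RUN was set against the level that pooling L-RUN with H-RUN in equal parts should give, and the spread of this residual over the expressed genes was scaled to a difference between a pair of libraries. This technical SD was 0.0365 over all expressed genes and 0.0222 to 0.0471 for the members, depending on their level. It rests on pools of the same RNA, so it does not hold differences between mice or dissections, and LD and CE had no such check. A gene was called higher or lower when its log2 difference reached 0.3 in size, the threshold of the study. In bulk tissue, fewer cells of a type and less RNA per cell cannot be told apart. Granule cell markers were present at high levels in every library, with a log2 summed level of 15.53 to 15.69 over 11 markers, none of which was listed at 0. In L-RUN against LD, Prox1 was called lower (log2 difference -0.41) and C1ql2 and Plk5 were called higher (0.37 and 0.36). Prox1 was also called lower in L-RUN than in H-RUN (-0.32), and C1ql2 higher than LD in RUN and H-RUN (0.37 and 0.40). Among expressed genes, 2.33% were called lower and 0.797% higher in L-RUN than in LD, and 0.974% lower in L-RUN than in H-RUN. In RUN and H-RUN, 0.362% and 0.354% were called higher than LD. In CE, 0 of the 11 granule cell markers were called, but 8 of 11 lay below LD, with a median log2 difference of -0.15. Of expressed genes, 50.8% lay below LD in CE, and 0.332% were called higher and 0.266% lower.

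Grik3 was the only member called in any comparison, and its lower values were those of the running libraries. It had 10.42 in LD, 10.47 in CE, 10.05 in L-RUN, 9.88 in H-RUN and 9.96 in RUN (regularized log values). All 3 running libraries lay below both libraries of mice with a locked disk, and the gap of 0.37 between LD and L-RUN was the widest step in that order. The gene encodes GluK3, a subunit whose channels need high glutamate concentrations to open. It lies on the plus strand of chromosome 4, at 125490700 to 125714173 of GRCm38 (mm10), and its annotated transcript has 8973 bases.

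In RUN, Grik3 was lower than in LD by 27.1% (log2 difference -0.46, technical SD 0.040), which was the 20th lowest difference of the 13550 expressed genes. In H-RUN it was lower by 31.0% (log2 difference -0.54), the 3rd lowest of all expressed genes, and in L-RUN by 22.7% (log2 difference -0.37), the 181st lowest. In CE it differed from LD by 0.05, which is 1.30 technical SDs, and it was not called. Set against CE in place of LD, RUN was lower by 29.7% (log2 difference -0.51), the 8th lowest difference. Between the groups of runners, Grik3 was higher in L-RUN than in H-RUN by 0.16, or 4.05 technical SDs, below the threshold. Its range over the 5 libraries was 0.59 on the log2 scale, the 59th largest of the expressed genes.

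**Figure D1:**
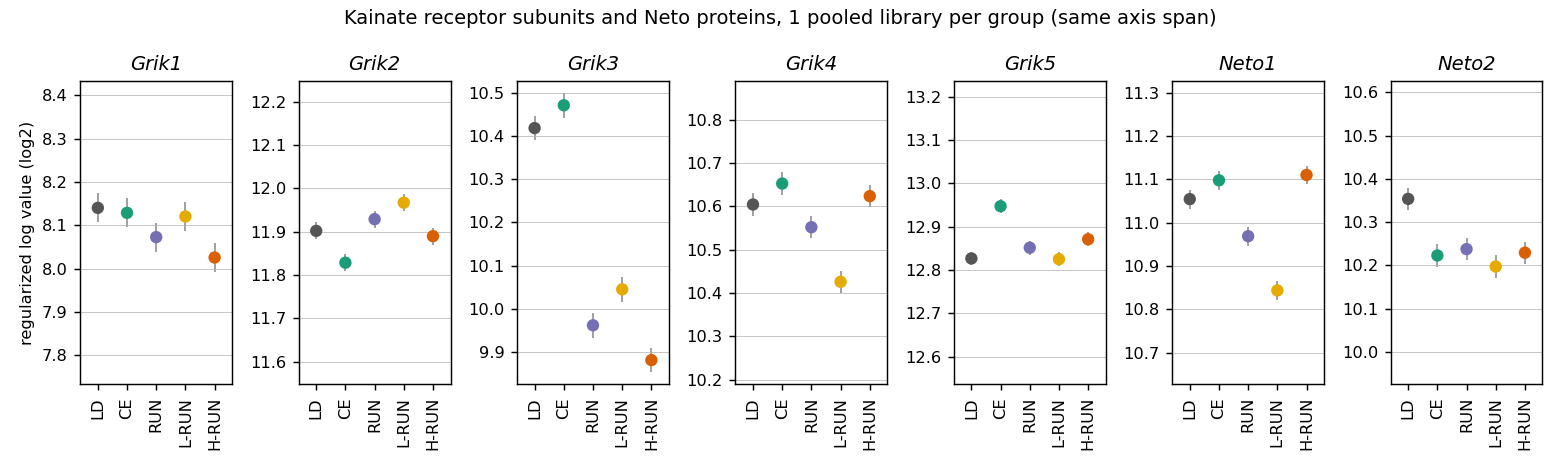
Regularized log value (log2) of each of the 7 genes in the 5 libraries, 1 point per library; bars show the technical SD of a single library and every panel spans the same number of log2 units. Grik3 had 10.42 and 10.47 in LD and CE against 9.88 to 10.05 in the running libraries, while no other gene had a range over 0.27.

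The bases before the start of Grik3 are shown because no other member was called. The RefSeq table of promoters gave an entry for 5 of the 7 members, and Grik1 and Neto1 had none. The run below covers chr4:125490446-125490695 of GRCm38.p6, plus strand, 250 bases that end just before the RefSeq start of transcription. Capitals mark the GC box letters GGGCGG on either strand.
Grik3: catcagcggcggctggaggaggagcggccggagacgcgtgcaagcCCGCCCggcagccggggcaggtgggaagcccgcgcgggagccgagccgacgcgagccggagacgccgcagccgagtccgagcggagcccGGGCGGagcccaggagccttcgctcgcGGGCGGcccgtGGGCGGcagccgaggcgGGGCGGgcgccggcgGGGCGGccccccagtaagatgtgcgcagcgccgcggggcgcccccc
This stretch had a GC content of 82%, against a median of 52.4% over all 32851 promoters in the table, and it held the GC box letters 6 times. GGGCGG was found in 32.7% of all promoters of this length. Among the other members, it was found 2 times before Grik5, 1 time before Grik4, 0 times before Grik2, and 0 and 2 times in the windows of the 2 starts of Neto2. The letters TGACGTCA (the cAMP response element, in 1.55% of all promoters) and CACGTG (a type of E-box, in 6.02%) were in none of these windows. These matches describe the letters only.

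The other subunits that can form channels by themselves stayed closer to LD. Grik2, which encodes GluK2, a main kainate receptor subunit of the hippocampus, had regularized log values of 11.90 in LD, 11.83 in CE, 11.97 in L-RUN, 11.89 in H-RUN and 11.93 in RUN. RUN, LD and H-RUN followed each other in steps within the technical SD of 0.028, while L-RUN lay above them and CE below, by 0.07 under LD. Grik1, which encodes GluK1, a subunit known from interneurons, had 8.14 in LD, 8.13 in CE, 8.12 in L-RUN, 8.03 in H-RUN and 8.07 in RUN. LD, CE and L-RUN followed each other in steps within the technical SD of 0.047, and the largest difference from LD was -0.11, in H-RUN. Grik2 lies on chromosome 10 (49094833 to 49788766, minus strand) and Grik1 on chromosome 16 (87895900 to 88290265, minus strand) of mm10.

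The high-affinity subunits followed different orders. Grik4 had regularized log values of 10.60 in LD, 10.65 in CE, 10.43 in L-RUN, 10.62 in H-RUN and 10.55 in RUN. L-RUN was the lowest library, at -0.18 from LD and -0.20 from H-RUN on the log2 scale (technical SD 0.036), whereas CE, H-RUN and LD followed each other in steps within the technical SD. At least as large a difference was found for 13.1% of expressed genes in L-RUN against LD and 5.07% in L-RUN against H-RUN. Grik5, which encodes GluK5, the usual partner of GluK2, had 12.83 in LD, 12.95 in CE, 12.83 in L-RUN, 12.87 in H-RUN and 12.85 in RUN. CE was the highest library for Grik5, above LD by 0.12 (technical SD 0.022), and the running libraries lay within 0.05 of LD. In CE against LD, 18.7% of expressed genes differed at least as much as Grik5. Grik4 lies on chromosome 9 (42518135 to 42944493) and Grik5 on chromosome 7 (25009849 to 25072346), both on the minus strand of mm10.

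The auxiliary genes differed from each other in how they varied. Neto1, on chromosome 18 (86394952 to 86506718, plus strand), had regularized log values of 11.05 in LD, 11.10 in CE, 10.84 in L-RUN, 11.11 in H-RUN and 10.97 in RUN. The groups of runners lay on opposite sides of LD, with L-RUN at -0.21 and H-RUN at 0.06, and H-RUN could not be told from CE. L-RUN was below H-RUN by 16.9% (log2 difference -0.27, or 8.65 technical SDs), the 195th lowest difference of the expressed genes but short of the threshold. Of its exons, 219 bases (2.62%) overlap a gene on the opposite strand, and whether reads were counted by strand is not known. The range of Neto1 over the 5 libraries was the widest of the members after Grik3. Neto2, on chromosome 8 (85636588 to 85700924, minus strand), had 10.35 in LD, 10.22 in CE, 10.20 in L-RUN, 10.23 in H-RUN and 10.24 in RUN. LD stood above the other 4 libraries, by 0.12 over the next, and those 4 followed each other in steps within the technical SD of 0.036. In these 4 libraries, 13.2% to 21.2% of expressed genes differed from LD at least as much as Neto2.

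Counted over the family, Grik3 made up every call. In CE against LD, 0 of 7 members were called, where 0.332% of expressed genes were called higher and 0.266% lower. In RUN against LD, 1 member was called lower and 0 higher (expressed genes, 0.952% lower and 0.362% higher). In L-RUN, 1 was called lower and 0 higher (2.33% and 0.797%), and in H-RUN likewise 1 lower and 0 higher (0.472% and 0.354%). In L-RUN against H-RUN, 0 members were called (0.974% of expressed genes lower and 0.561% higher), and in RUN against CE 1 was called lower and 0 higher (0.539% and 0.295%). The median log2 difference of the members from LD was 0.04 in CE, -0.16 in L-RUN, -0.01 in H-RUN and -0.07 in RUN, where that of all expressed genes was within 0.01 of 0. In L-RUN, 6 of 7 members lay below LD, as did 50.7% of expressed genes. These 6 include Grik1 and Grik5, which were within the technical SD of LD (-0.02 and -0.002). Differences also moved with transcript length, as described below. With that trend removed, Grik2 and Grik5 were at 0.19 and 0.02 in L-RUN against LD. Grik1 was at -0.01, Grik3 at -0.25, Grik4 at -0.11, Neto1 at -0.10 and Neto2 at -0.09.

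**Figure D2:**
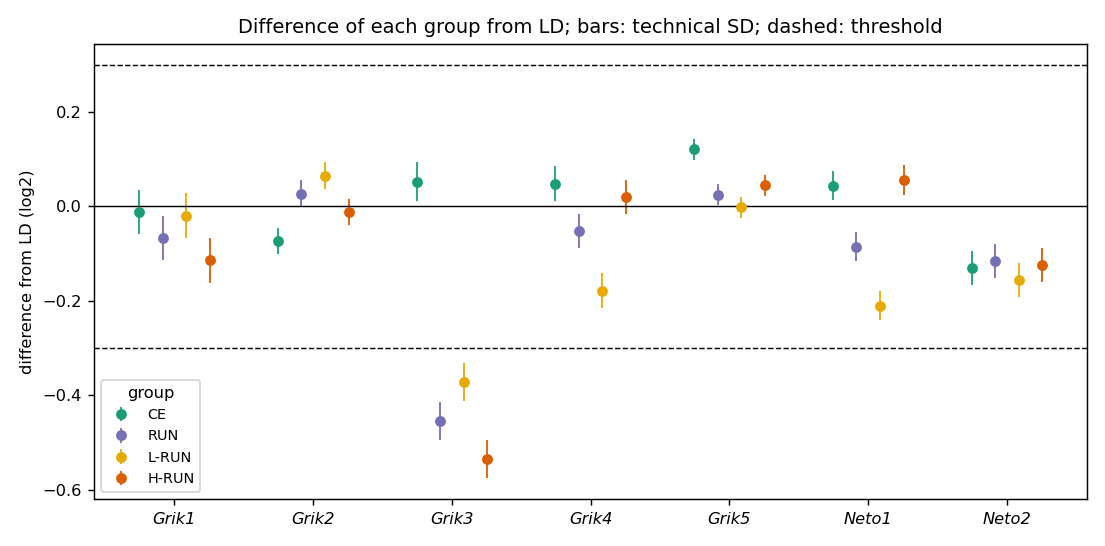
Log2 difference from LD of CE and the 3 running libraries for each of the 7 genes; bars show the technical SD of a difference and dashed lines the threshold of 0.3. The 3 points below the lower line are the running libraries for Grik3, at -0.37 to -0.54, and the next lowest point is Neto1 in L-RUN at -0.21.

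The RUN library gave a check on each member, since its mice are those of the other running libraries. Grik3 in RUN differed from the level set by equal pooling by -0.004, and the largest such residual of a member was 0.024. For 6 of 7 members the RUN value fell between those of its sub-groups, Neto2 being the exception, and this was so for 58.3% of expressed genes. The low Grik3 value was found in all 3 running libraries, which together hold 8 mice, so RUN is not independent of the other two.

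Levels of different genes were compared per kilobase of the longest transcript. On this scale Grik5 had the highest mean log2 level per kb over the libraries (10.84), followed by Grik2 (8.67), Grik4 (8.01), Neto1 (7.95), Neto2 (7.76), Grik3 (6.99) and Grik1 (6.23). With the union of exons as length, the order was the same. The lowest library of Grik5 (10.80 per kb) lay above the highest of any other member (8.73, Grik2 in L-RUN). Grik4 ranged from 7.87 to 8.10 and Neto1 from 7.78 to 8.05 on this scale, so the ranges of these neighbours overlapped.

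As a share of the summed level per kb of the 5 subunits, Grik5 took 66.5% in LD, 68.5% in CE, 67.7% in L-RUN, 68.5% in H-RUN and 68.1% in RUN. Grik2 took 13.6% to 16.1% and Grik4 8.85% to 9.96%. Grik3 took 5.67% in LD and 5.57% in CE, and 4.16%, 4.46% and 3.91% in RUN, L-RUN and H-RUN. The technical SD of these shares of Grik3 was 0.08 to 0.11 percentage points. Its share was smaller in all 3 running libraries than in LD and CE by more than this SD, which holds no differences between mice or dissections. Its share also depends on the length used, at 7.09% in LD and 4.90% in H-RUN with the union of exons, but the order of the libraries was the same. The log2 summed level per kb of the subunits stayed between 11.37 and 11.47. Neto1 made up 52.2% of the Neto1 and Neto2 sum in LD and 51.2% in L-RUN, against 55.2% in CE and 55.3% in H-RUN (technical SD 0.58 percentage points in each).

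**Figure D3:**
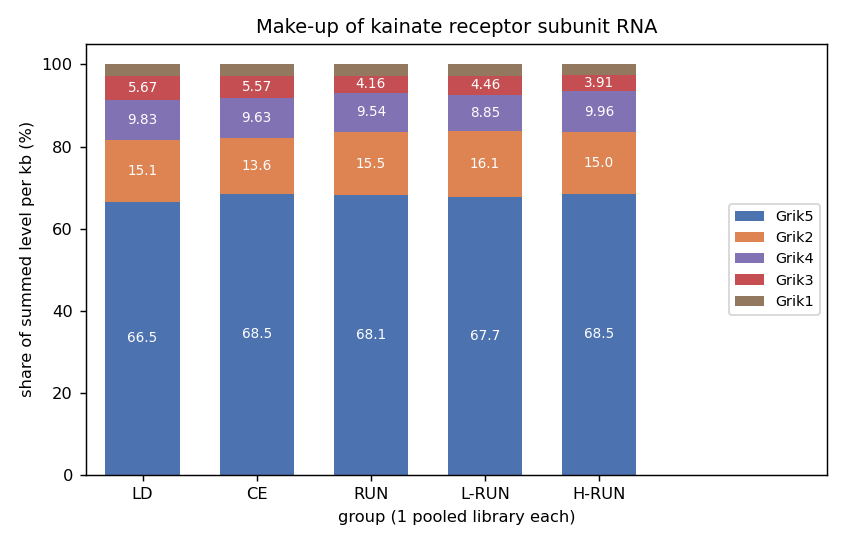
Share (%) of each kainate receptor subunit in the summed level per kb of the 5 subunits, stacked for the 5 libraries; the unlabelled top segment is Grik1. The Grik3 segment is 5.67% and 5.57% in LD and CE and 3.91% to 4.46% in the running libraries, while Grik5 takes 66.5% to 68.5% throughout.

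Transcript length moved with the comparisons. Over the 12765 expressed genes with a length (94.2%), the Spearman correlation across genes of the log2 difference with length was -0.33 in CE, -0.51 in L-RUN, -0.37 in H-RUN and -0.49 in RUN, each against the same LD library. Genes are not independent replicates, and these values describe the libraries. In L-RUN the median log2 difference was 0.07 in the quartile of shortest genes and -0.09 in that of the longest. Grik2, Grik3 and Neto1 are long, at 9427, 8973 and 8352 bases, which put them at or above the 94.5th percentile. With the length trend removed, Grik3 was at -0.36 in RUN and -0.48 in H-RUN, both past the threshold, but at -0.25 in L-RUN, short of it. Neto1 in L-RUN went from -0.21 to -0.10 and Grik4 from -0.18 to -0.11, whereas Grik2 in L-RUN went from 0.07 to 0.19. Against H-RUN, Neto1 in L-RUN was at -0.21 after the removal. The part of transcript length in these results was not tested beyond this.

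**Figure D4:**
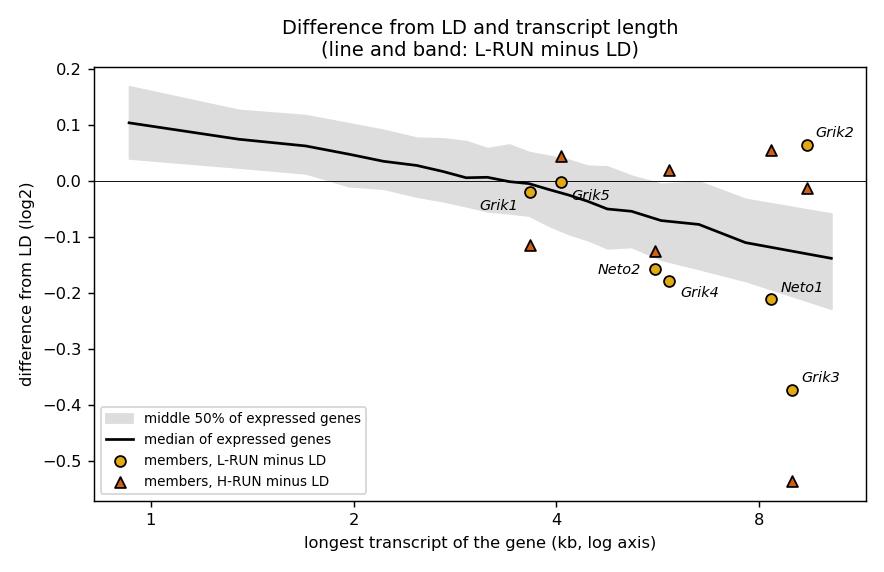
Log2 difference from LD against the length of the longest transcript (kb, log axis); the line and band are the median and middle 50% of expressed genes for L-RUN minus LD, circles are the members in L-RUN and triangles the members in H-RUN. Grik3 in L-RUN lies below the band (-0.37), and Grik3 in H-RUN is the lowest point (-0.54). Grik4 (-0.18) and Neto2 (-0.16) in L-RUN also lie below the band. Neto1 in L-RUN (-0.21) lies just under its lower edge, and Grik2 in L-RUN lies above the band.

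Markers of neighbouring regions that a DG dissection could hold were read beside these values. The log2 summed level of 6 CA1 pyramidal markers was 12.22 in LD, 12.34 in CE, 11.86 in L-RUN, 12.13 in H-RUN and 12.01 in RUN. Against LD, 4 of these 6 were called lower in L-RUN, while the marker Fibcd1 was the only call in H-RUN and RUN (lower) and in CE (higher). Of all expressed genes, 2.33% were called lower in L-RUN, 0.472% in H-RUN and 0.952% in RUN, and 0.332% were called higher in CE. In L-RUN against H-RUN, 3 of the 6 CA1 markers were called lower and 0 higher. The 3 were Wfs1 (-0.51), Pou3f1 (-0.52) and Man1a (-0.37), where 0.974% of expressed genes were called lower. Fibcd1 went in the direction of Grik3, with regularized log values of 10.35 in LD, 10.66 in CE, 9.90 in L-RUN, 9.83 in H-RUN and 9.89 in RUN. Wfs1, another CA1 marker, had 10.44 in LD and 10.62 in H-RUN, the library in which Grik3 was lowest. For Neto1 and Grik4 the lowest library was L-RUN, as it was for the CA1 sum and for all of its members but Fibcd1, and the part of CA1 tissue in these results was not tested.

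The log2 summed level of the 6 measured CA3 markers was 12.24 in LD, 12.39 in CE and 12.27 in L-RUN. It was 12.22 in both H-RUN and RUN. Of the 6, 0 were called in any of the 3 running groups against LD. In these groups 0.472% to 2.33% of expressed genes were called lower and 0.354% to 0.797% higher, and 0 of 6 is close to these shares. Plagl1 was the only CA3 call, higher in CE than in LD (log2 difference 0.44), higher in L-RUN than in H-RUN (0.43) and lower in RUN than in CE (-0.46). The shares of expressed genes so called were 0.332%, 0.561% and 0.539%. The log2 summed level of the 11 measured interneuron markers was 14.65 to 14.74 in all libraries. Of these markers, Sst was called higher than LD in CE and L-RUN (log2 differences 0.34 and 0.30). Npy was called higher in L-RUN than in LD and H-RUN (0.32 in each). The shares of expressed genes called higher were 0.332% in CE and 0.797% in L-RUN against LD, and 0.561% in L-RUN against H-RUN. The log2 summed level of leptomeningeal markers went from 12.60 in LD and 12.85 in CE to 13.51 in RUN and 14.07 in L-RUN, with 12.45 in H-RUN. Of 11 expressed leptomeningeal markers, 4 were called higher in CE, 6 in RUN and 8 in L-RUN, while 2 were called lower in H-RUN. The same shares over all expressed genes were 0.332%, 0.362% and 0.797% higher, and 0.472% lower in H-RUN. In L-RUN against H-RUN, 10 of the 11 were called higher and 0 lower, where 0.561% of expressed genes were called higher. Grik3 was called lower both in L-RUN, where the leptomeningeal sum was highest, and in H-RUN, where that sum was lowest. LD and CE, where Grik3 was higher, had sums between these, and the part of leptomeningeal tissue in these results was not tested. The log2 summed level of the astrocyte list was 16.63 to 16.88 and that of the oligodendrocyte lineage 14.70 to 14.93, both lowest in L-RUN and highest in LD. Against LD, the astrocyte genes Slc1a2 and Slc1a3 were called lower in L-RUN (-0.36 and -0.30), and the endothelial gene Flt1 in L-RUN and RUN (-0.43 and -0.31). Among expressed genes, 2.33% were called lower in L-RUN and 0.952% in RUN. The sums ranged from 12.98 to 13.09 for CA2, from 12.06 to 12.20 for mossy cells, from 12.42 to 12.56 for microglia and from 11.28 to 11.43 for endothelium. For choroid plexus the sum was 9.42 to 9.68, with its highest value in CE, where Ttr was called higher than in LD (0.62). Only 2 of the 5 choroid plexus markers, Ttr and Kl, were expressed. Kl had 8.76 in LD and 8.79 in CE, so the higher sum in CE was that of Ttr and not of the list. No list had a marker listed at 0 in all libraries.

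Among the 30 measured partners and regulators of kainate receptors, the only call was C1ql2. C1ql2 is a secreted protein of granule cells that, with C1ql3, gathers kainate receptors at mossy fiber synapses, and it also stands in the list of granule cell markers. It had regularized log values of 11.69 in LD, 11.86 in CE, 12.07 in L-RUN, 12.10 in H-RUN and 12.06 in RUN. The running libraries were above LD by 0.37, 0.37 and 0.40, all called higher, and CE by 0.17, which was not. For comparison, 0.354% (H-RUN) to 0.797% (L-RUN) of expressed genes were called higher than LD in a running library. C1ql2 and Grik3 thus differed from LD in opposite directions in the same 3 libraries, which share their mice and their control.

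C1ql3 had 12.70 in LD and 12.56 to 12.63 in the other libraries, and Nrxn3, a neurexin that binds these proteins, had 11.79 to 11.90. Adarb1, an enzyme that edits the transcripts of Grik1 and Grik2, had 12.53 in LD, 12.47 in CE, 12.40 in L-RUN, 12.52 in H-RUN and 12.45 in RUN. Scaffolds (Dlg4, Grip1, Pick1), the trafficking protein Snx27 and the ligase adaptors Klhl24 and Klhl17 were not called in any comparison. The median log2 difference of the 30 genes from LD was -0.02 in CE, RUN and L-RUN and -0.01 in H-RUN, and 0 of them were called lower. The share of expressed genes called lower than LD went from 0.266% (CE) to 2.33% (L-RUN). A count of 0 of 30 is close to these shares and does not set the partners apart.

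**Figure D5:**
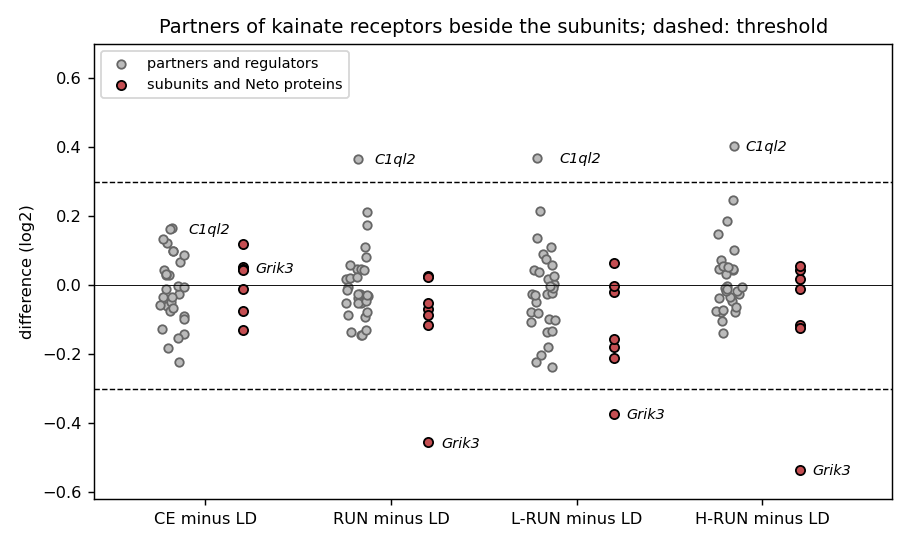
Log2 difference from LD of 30 partners and regulators of kainate receptors (grey, spread sideways for legibility only) beside the 7 subunits and Neto proteins (red) in CE and the 3 running groups; dashed lines mark the threshold of 0.3. C1ql2 lies above the upper line in the 3 running groups (0.37 to 0.40), and Grik3 below the lower line in the same groups.

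The other ionotropic glutamate receptor genes, those of the AMPA, NMDA and delta receptors, were used as a comparison. Of these 13 genes, 3 were called lower in RUN and 3 in L-RUN, against 1 in CE and 1 in H-RUN, and 0 were called higher in any of them. Of all expressed genes, the share called lower was 0.952% in RUN, 2.33% in L-RUN, 0.266% in CE and 0.472% in H-RUN. It was 0.974% in L-RUN against H-RUN and 0.539% in RUN against CE. Grin2a, an NMDA receptor subunit, was lower by 0.42 in CE, 0.57 in RUN and 0.88 in L-RUN on the log2 scale, and was at -0.29 in H-RUN. Grin2b, another NMDA subunit, was at -0.72 in L-RUN, -0.25 in H-RUN and -0.44 in RUN. For both of these genes L-RUN was the lowest library, and they were called lower in L-RUN than in H-RUN, where Grik3 was higher by 0.16. Grin3a, an NMDA subunit that reduces calcium entry, was at -0.32 in L-RUN, -0.33 in H-RUN and -0.30 in RUN and at 0.03 in CE. Against CE, RUN was lower for Grin3a and Grid1, both at -0.33, as it was for Grik3. At the threshold of 0.3, Grin3a and Grik3 were the ionotropic glutamate receptor genes called lower in all 3 running libraries, but Grin3a lay close to the threshold in each, and Grik3 in L-RUN was not called at a threshold of 0.4 or with the length trend removed.

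The expressed genes whose values over the 5 libraries were most like those of Grik3 were found by the root mean square distance of centred values. Igfbp5, an IGF-binding protein, was nearest at 0.04 on the log2 scale (Pearson r = 0.98), and it was the only gene within 0.05. It was followed by Kcnf1, a potassium channel subunit, at 0.06 (r = 0.98), and Atp2b4, a plasma membrane calcium pump, at 0.07 (r = 0.99). Kcnf1 had 10.32 in CE, 10.21 in LD, 9.92 in RUN and 9.80 in H-RUN, with L-RUN between LD and RUN, the same order of libraries as Grik3. Atp2b4 also had this order, at 12.29 in CE, 12.20 in LD, 11.96 in L-RUN, 11.86 in RUN and 11.85 in H-RUN. For Igfbp5 the values were 12.66 in LD, 12.63 in CE, 12.18 in L-RUN, 12.11 in H-RUN and 12.16 in RUN. These likenesses rest on 5 points that share libraries and mice, and they are a description of the libraries.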

How the data were processed

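RNA of the mouse DG was sequenced as 5 libraries, 1 per group, from poly(A) RNA prepared with TruSeq. Whether reads were counted by strand is not given in the sources used here. Per the submitters' processing notes and the study's methods, the authors used CASAVA 1.8.2, mapped reads to mm10 with TopHat2 2.0.10, counted reads per RefSeq gene using HTSeq, and deposited log2 values (the regularized log of DESeq2 1.10.1), which are not scaled to gene length. Shrinkage can understate the change of genes with low levels.

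The members, gene lists and threshold were chosen with earlier results of these data known. Differences were taken between libraries, without tests. For the technical SD, the residual of RUN from the log2 mean of L-RUN and H-RUN was summarised by the median absolute deviation in 10 deciles of expression. A single library was given this variance divided by 1.5. SDs of shares were propagated from it. Positions and lengths came from GENCODE M21 and promoters from RefSeq, by symbol. The length trend was a lowess curve (fraction 0.3). Named genes were the 7 members, called genes of the lists of partners and of other ionotropic glutamate receptors, and the 3 genes nearest to a member with a range of 0.3 or more. Marker lists were read by sums and counts. The markers named, and the other named genes of these lists, were chosen after their values were seen. The scripts were tested on simulated data. Tools were matplotlib 3.10.9, statsmodels 0.14.6, scipy 1.17.1, pandas 2.3.3 and numpy 2.4.6 in Python 3.11.15.

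Alternatives were thresholds of 0.2 and 0.4, centring, quantile normalization, a minimum mean of 7 or none, LD and CE averaged as the baseline, the union of exons as length, and removal of the length trend.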

Additional observations from a re-analysis of the deposited data

Results flagged for a closer look

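Members that differed from LD in opposite directions, by more than the technical SD on both sides, were looked for. Neto1 did so in the groups of runners, at -0.211 in L-RUN and 0.0557 in H-RUN (log2, technical SD 0.031), and this difference was not tested. Between CE and RUN, also untested, they were Grik3 (0.0526 in CE and -0.455 in RUN), Grik4 (0.0483 and -0.0524) and Neto1 (0.0434 and -0.0856). Of these values, that of Grik3 in RUN passed the threshold of 0.3, and the remaining ones were between 1.30 and 6.84 technical SDs from 0. In CE and RUN, 58.4% and 55.0% of expressed genes differed from LD at least as much as Grik4, and 62.3% and 34.5% as much as Neto1. For Neto1 in L-RUN and H-RUN these shares were 8.59% and 46.6%. How many expressed genes meet the same rule was not counted. With the length trend removed, the RUN values of Neto1 and Grik4 were at -0.0013 and 0.0003, within the technical SD of LD. Grik2 also lay on opposite sides of LD, at -0.07 in CE and 0.03 in RUN, but the latter was within its technical SD.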

How the results depend on the processing

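No paired analysis was possible because each group had 1 library. Counts of called members were recomputed 45 times and 4 changed. In L-RUN against LD, the count of 1 became 2 at a threshold of 0.2 (Grik3 and Neto1), 0 at a threshold of 0.4 and 0 with the length trend removed. In L-RUN against H-RUN, the count of 0 became 1 at a threshold of 0.2 (Neto1). Of 147 recomputed differences of members, 34 moved by more than 1 technical SD, 20 of them with the length trend removed, and the largest move was 0.13. No called difference changed sign and 11 that were not called did, Grik4 in RUN, Grik5 in all 3 running groups and Grik2 in H-RUN among them. The cause was not tested. Differences between mice and the depth of the libraries are not known.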
